A study of Mus musculus with 5 samples.

Results

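The genes of 6 annexins (Anxa1, Anxa2, Anxa3, Anxa4, Anxa5 and Anxa6) and 4 S100 proteins (S100a4, S100a6, S100a10 and S100a11) were followed in cultured cardiac fibroblasts (CF) of the mouse. They were taken by gene name from the tables, and all 10 were present among the 20365 gene names measured. Each gene was read on 1 interval of its 3′ untranslated region (3′ UTR), namely the one whose deposited CPM, averaged over the libraries with S4U, was highest. CF were isolated from hearts of adult healthy male C57Bl/6J wildtype mice by collagenase perfusion and grown to confluency. In 3 labeled libraries the cells had been kept for 12 h with 0.1 mM 4-thiouridine (S4U), a uridine analog built into newly made RNA. In 2 unlabeled libraries the cells were cultured in parallel without S4U, and RNA of both groups was alkylated with iodoacetamide. Alkylated S4U is read as C in place of T in SLAMseq (thiol-linked alkylation for metabolic sequencing of RNA), so that the T>C rate, conversions divided by covered T positions, tells how much of a transcript was made during labeling. The comparison of labeled with unlabeled libraries thus asks which transcripts were newly made, and the comparison of read counts asks whether transcript levels differed with S4U. No infarcted heart was part of these libraries, and the cells were expanded in culture, which limits them as a model of CF in the heart.

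Annexins are cytosolic proteins that bind acidic membrane phospholipids when calcium rises, and they act in membrane repair, vesicle traffic and exocytosis. S100 proteins are small calcium-binding proteins of the EF-hand type that mostly work as dimers and change the activity of partner proteins, among them annexins. The best known pair is the complex of annexin A2 with S100A10 (p11), and annexin A1 binds S100A11. Members of both families lack a classical signal peptide and can nevertheless be found outside cells. S100a4 is also known as fibroblast-specific protein, although leukocytes express it too.

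The reads counted on 1 interval per gene ranged from 506045 to 1576048 in the labeled libraries and were 1842863 and 996053 in the unlabeled libraries, with labeled replicate 3 the shallowest. Over all intervals the T>C rate was 0.0353, 0.0358 and 0.0356 in the labeled libraries and 0.00111 and 0.000652 in the unlabeled libraries. All 8 fibroblast markers tested, among them Col1a1, Pdgfra and Tcf21, had reads in every library. Their summed level was 38175 to 41977 CPM (reads scaled to the reads counted on 1 interval per gene) with S4U and 31055 to 34717 without. Single markers did not all follow this sum. Col1a1 had 12755 to 13293 CPM with S4U and 8785 to 9660 without, whereas Pdgfra had 516 to 525 with S4U and 722 to 841 without. The 4 endothelial markers summed to 76.8 to 163, the 5 leukocyte markers to 35.6 to 51.2 and the 4 cardiomyocyte markers to at most 7.03 CPM, with Actn2 at 0 in every library. The 4 neutrophil markers, which include the S100 genes S100a8 and S100a9, summed to at most 0.837 CPM, with S100a9 and Ly6g at 0 throughout. The part of RNA from other cells in the values of the annexin and S100 genes was not tested.

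All 10 intervals lay fully within annotated exons and UTRs of their genes in GRCm39 (mm39). The libraries were made with a kit that reads mRNA from its 3′ end, so the bases before the cleavage site show where the reads were collected. In that stretch the poly(A) signal directs cleavage of the transcript. On the transcript strand, AATAAA stood in the last 50 bases of the interval in 7 of the 10 genes and its variant ATTAAA in 1 (Anxa4). Anxa3 and Anxa6 held neither, which says only that these letters are missing from that stretch. The annotated end of Anxa6 lay 125 bases past its interval, so the end of an interval need not be the cleavage site. Over 20329 gene intervals, 61.8% held AATAAA there, 17.2% held ATTAAA and 75.3% held at least 1 of them. The sequences are shown 5′ to 3′ from GRCm39, with the signal nearest to the end of the interval in capitals. For Anxa3 and Anxa6 the last 30 bases of the interval are given in lower case.
Anxa1 (chr19:20350798-20350826, minus strand): tacatataataaAATAAAacaattttata
Anxa2 (chr9:69399036-69399065, plus strand): tactgtgtcgtgAATAAAccgtttttactt
Anxa3 (chr5:96993798-96993827, plus strand): tatttcaaaatacatttgttgtaaatgctc
Anxa4 (chr6:86713828-86713857, minus strand): gagacatttttaATTAAAatggtggcttta
Anxa5 (chr3:36503080-36503109, minus strand): acattggcgacaAATAAAaacattcccttc
Anxa6 (chr11:54869779-54869808, minus strand): tgataaaagtaccaagctaggaatttccac
S100a4 (chr3:90513318-90513347, plus strand): ctgagcaaattcAATAAAaggttttgaaac
S100a6 (chr3:90521683-90521712, plus strand): gggtagttatacAATAAAtatttcgttttt
S100a10 (chr3:93471910-93471939, plus strand): cccattgccctcAATAAAgaaagtcctttt
S100a11 (chr3:93433553-93433582, plus strand): cctgctggcaaaAATAAAacaatgccattt

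Between 11 bases (Anxa1) and 25 bases (S100a10, S100a11) followed the signal up to the end of the interval. Anxa1 held 2 copies of AATAAA that share 1 base, and the other genes with a signal held 1 copy. The S100 intervals were short, from 92 bases (S100a6) over 141 bases (S100a4 and S100a11) to 241 bases (S100a10), and the annexin intervals ran from 280 bases (Anxa1 and Anxa2) to 924 bases (Anxa4). The median over all gene intervals was 797 bases. The 4 S100 genes shared chromosome 3, where S100a4 and S100a6 lay near each other in one part (intervals chr3:90513212-90513352 and chr3:90521630-90521721) and S100a11 and S100a10 in another (chr3:93433455-93433595 and chr3:93471712-93471952). Anxa5 was on the same chromosome (chr3:36503072-36503492), and the other annexins lay on chromosomes 5, 6, 9, 11 and 19. The annotation carries S100a6 for 14122, S100a10 for 2558 and S100a11 for 1698 bases past the end of the interval, and reads there were not counted. It carries Anxa4 for 147 and Anxa6 for 125 bases past the end, and the remaining genes for at most 10 (Anxa2). ATTTA, the core of AU-rich elements that can shorten the life of an mRNA, occurred 2 times in Anxa4 and 1 time in Anxa5, and not in the other 8 intervals. Of intervals within 20% of their length, 69.3% of 2379 held it for Anxa4 and 44.0% of 1829 for Anxa5. For the 8 genes without it the share was 12.8% (S100a6) to 31.1% (S100a10) among the S100 genes and 37.2% (Anxa1 and Anxa2) to 50.5% (Anxa6) among the annexins, so intervals of these lengths often lacked it. Opposite-strand genes overlapped the intervals of Anxa1 (1500015L24Rik) and Anxa4 (Gm44036), and the kit keeps the strand of the RNA.

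S100a6 and S100a4 were the most abundant transcripts of the set, and Anxa4 was the least abundant. Levels are given as CPM relative to the reads counted on 1 interval per gene. No division by length was made, since 3′ end sequencing yields about 1 read position per transcript whatever its length. Over the 3 labeled libraries S100a6 had 2599 ± 525 (mean ± SD), S100a4 1790 ± 658 and Anxa1 910 ± 107 CPM. S100a6, whose product binds the calcyclin-binding protein, ranked above 99.8% of the 11420 genes with reads in every labeled library. In the middle of the order stood S100a11 (708 ± 362), Anxa5 (670 ± 143) and Anxa2 (650 ± 72.3), the last 2 encoding the protein used to stain dying cells and the partner of S100A10. Below them came Anxa3 (370 ± 86.0), Anxa6 (340 ± 210), S100a10 (180 ± 45.9) and Anxa4 (80.8 ± 1.54). Even Anxa4 lay above 77.1% of the genes read.

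Several steps in this order were within the spread between libraries. S100a6 exceeded S100a4 in 3 of 3 labeled libraries, by 809 ± 172 CPM, and S100a4 exceeded Anxa1 in 3 of 3, by 880 ± 710. Anxa1 over S100a11, S100a11 over Anxa5, Anxa5 over Anxa2, Anxa3 over Anxa6 and Anxa6 over S100a10 differed by less than the SD of the difference. Anxa2 over Anxa3 (280 ± 157) and S100a10 over Anxa4 (99.0 ± 45.6) held in 3 of 3 libraries, and in both cases the ranges did not overlap. Per kilobase of interval the short S100 genes came out higher still, with S100a6, S100a4 and S100a11 in the first 3 places and 28247 CPM per kilobase for S100a6. The deposited CPM values were divided by numbers of reads that were 7.58 to 28.9 times the counted reads, so they differed in scale from library to library, and on them Anxa5 and Anxa2 stood ahead of S100a11.

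**Figure D1:**
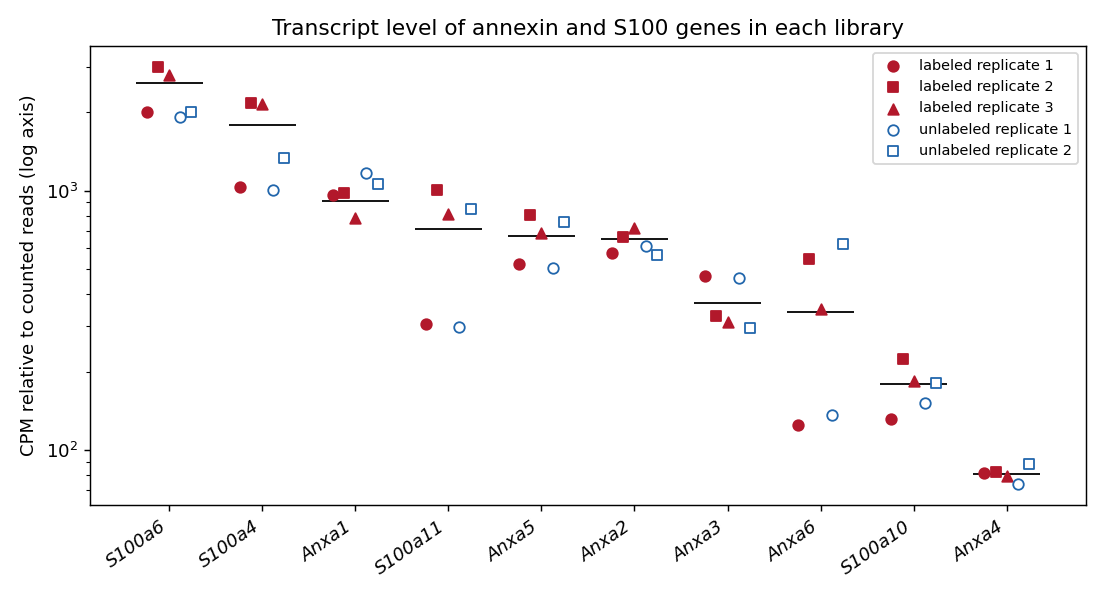
Level (CPM relative to counted reads, log axis) of each gene in the 3 labeled (red, filled) and 2 unlabeled (blue, open) libraries, with circles for number 1, squares for number 2, a triangle for number 3 and a black line at the labeled mean. S100a6 and S100a4 stand at the top and Anxa4 at the bottom, and for Anxa6 and S100a11 both circles lie far below the other symbols.

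Library by library, some genes were steady and others moved by several fold. S100a6 had 2005, 3001 and 2790 CPM with S4U (replicates in order of their number) and 1914 and 2016 without. S100a4 had 1030, 2181 and 2158 with S4U and 1009 and 1329 without. For both genes labeled replicates 2 and 3 were high and the other libraries low, so the groups overlapped. S100a11 had 305, 1005 and 814 with S4U and 297 and 852 without. Anxa6, a large annexin of the plasma membrane and endosomes, had 125, 544 and 350 with S4U and 137 and 620 without. In these genes the libraries numbered 1 were low in both groups. S100a10 varied less, with 132, 223 and 184 CPM with S4U and 152 and 181 without. Anxa5 had 519, 803 and 688 with S4U and 504 and 757 without, again lowest in the libraries numbered 1.

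Anxa1, which encodes a mediator that dampens inflammation, had 964, 979 and 786 CPM with S4U and 1173 and 1062 without, and both unlabeled libraries lay above all labeled ones. Anxa2 had 572, 662 and 715 with S4U and 612 and 566 without, a narrow range with overlapping groups. Anxa3 had 469, 329 and 312 with S4U and 458 and 296 without, and here the libraries numbered 1 were the highest. Anxa4 had 81.2, 82.0 and 79.0 with S4U and 73.8 and 88.3 without. This gene was the steadiest of the set, although it rested on 40 to 136 reads a library.

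With S4U every transcript of the set carried more T>C conversions than without, at rates from 0.0212 ± 0.00108 (S100a11) to 0.0447 ± 0.00178 (Anxa1). All 10 genes passed the test (beta-binomial likelihood-ratio test on conversions and covered T positions, Benjamini-Hochberg adjusted over 19240 intervals). The adjusted p ranged from 4.71e-06 (Anxa1) to 0.000883 (Anxa4) in that beta-binomial test. Since 94.5% of all intervals tested passed it, these calls show labeling of the transcripts and nothing particular to annexins or S100 genes. Within the number shared by labels, the labeled rate was 5.24 to 617 times the unlabeled rate for number 1 and 7.85 to 292 times for number 2, with S100a4 or Anxa6 lowest. The labels do not say that the libraries of a group came from separate animals, so p-values measure the spread between these libraries. The methods of the study give 3 CF preparations for SLAMseq.

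By their means, the 6 annexins of the set had higher rates than its 4 S100 genes. The only other deeply covered S100 gene, S100a16, had a mean rate of 0.0358, above Anxa2, Anxa4 and Anxa5 and level with Anxa6 (0.0358). After subtraction of its unlabeled mean S100a16 had 0.0302, below all 6 annexins treated alike (0.0320 for Anxa4, the lowest). Mean rates were 0.0331 to 0.0447 for the 6 annexins and 0.0212 to 0.0290 for the 4 S100 genes. In labeled replicate 1 the lowest annexin (Anxa5, 0.0271) lay above the highest S100 gene (S100a10, 0.0234). The same held in labeled replicate 2, where Anxa6 had 0.0336 and S100a10 0.0326. In both libraries the 95% Wilson intervals of these pairs overlapped (0.0244 to 0.0300 and 0.0190 to 0.0288 in labeled replicate 1, 0.0306 to 0.0369 and 0.0280 to 0.0380 in labeled replicate 2). In labeled replicate 3 the families overlapped through Anxa4 alone (0.0217), which there had 20 conversions on 920 covered T positions and a 95% Wilson interval of 0.0141 to 0.0333. Genes of a family are no replicates, and the difference between the families was not tested.

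For comparison, 2105 genes reached 1000 covered T positions in each of the 5 libraries (deeply covered genes), and 9 of the 10 genes were among them, Anxa4 being the exception. The median rate of these genes was 0.0388, with quartiles of 0.0343 and 0.0423. Of the set, 8 of 10 lay below this median, namely 4 of 6 annexins and 4 of 4 S100 genes, and 6 lay below the lower quartile. Within single labeled libraries 7, 8 and 7 of the 10 were below the median of that library. Anxa1 and Anxa3 were above the upper quartile, at the 87.6th and 80.4th percentile. S100a11, S100a4 and S100a6 were at percentiles 8.41, 9.41 and 10.5.

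**Figure D2:**
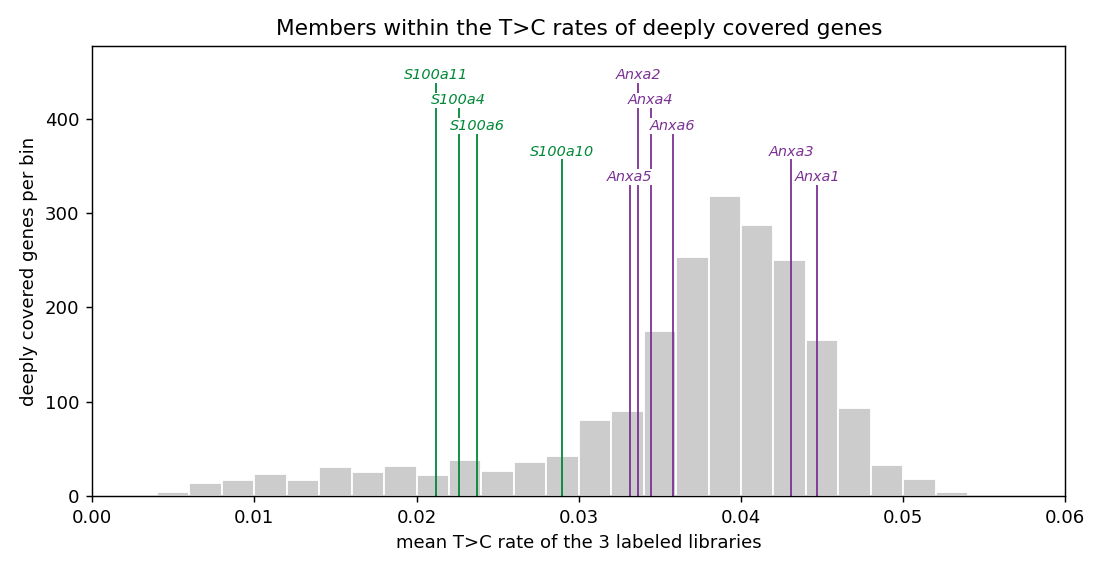
Number of deeply covered genes (vertical axis) by mean T>C rate of the 3 labeled libraries (horizontal axis, bins of 0.002), with a line at the rate of each annexin (violet) and S100 gene (green). The S100 genes sit in the low tail from 0.0212 to 0.0290, and Anxa1 and Anxa3 lie above the upper quartile of 0.0423.

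Among the annexins, Anxa1 had the highest mean rate. Its rate was 0.0435, 0.0468 and 0.0439 in labeled replicates 1, 2 and 3, on 8580 to 28464 covered T positions. The unlabeled libraries gave 7.04e-05 (3 conversions on 42589 T positions) and 0.000169 (4 on 23694), the lowest mean background of the set. Anxa3 had 0.0418, 0.0415 and 0.0461 with S4U, and its mean differed from that of Anxa1 by less than the SD of the difference. Both genes were higher than every other member in labeled replicates 2 and 3, and in labeled replicate 1 Anxa4 was higher (0.0453). Anxa3 exceeded Anxa6, the next in order, in 3 of 3 labeled libraries, by 0.00731 ± 0.00194.

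Anxa6, Anxa4, Anxa2 and Anxa5 formed a middle group in which no neighbour in the order differed beyond the SD of the difference. Anxa2, encoding the subunit that anchors the complex with S100A10 to membranes, had rates of 0.0289, 0.0359 and 0.0363. Anxa5 had 0.0271, 0.0361 and 0.0362. For both genes labeled replicate 1 was low and the other libraries were alike, and the Wilson intervals of labeled replicates 1 and 2 did not overlap (0.0265 to 0.0315 and 0.0331 to 0.0388 for Anxa2). Anxa6 had 0.0329, 0.0336 and 0.0409. Anxa4, whose product is found mainly in epithelia, had 0.0453, 0.0362 and 0.0217, a 2.09-fold range on only 920 to 2426 covered T positions.

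**Figure D3:**
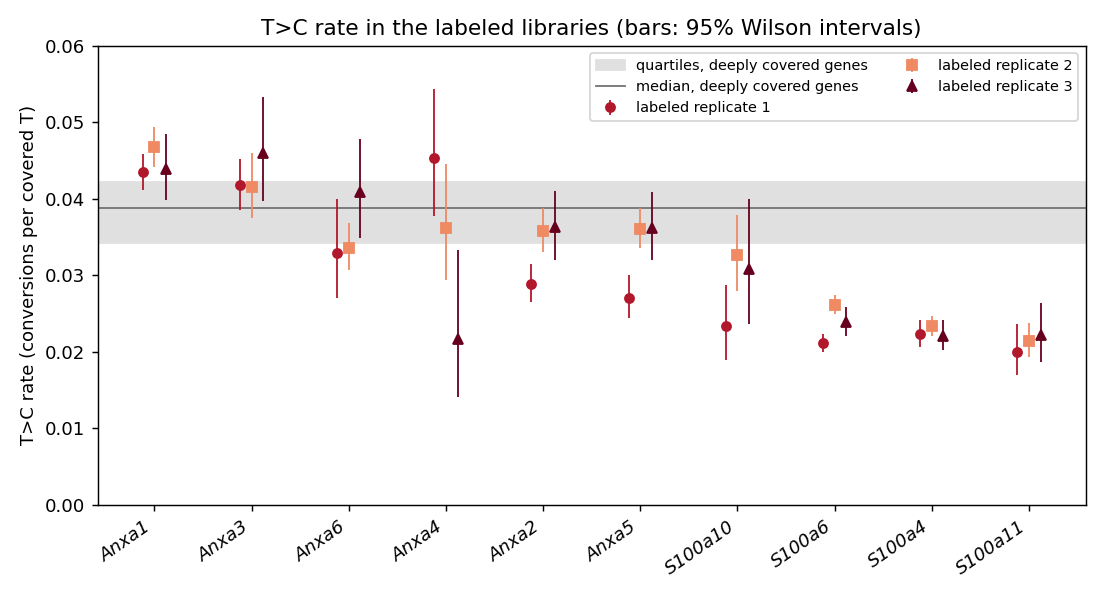
T>C rate (conversions per covered T) of each gene in labeled replicates 1 (circles), 2 (squares) and 3 (triangles) with 95% Wilson intervals, which cover counting error only; the grey line and band are the median and quartiles of the deeply covered genes. The S100 genes on the right lie below the band in all 3 libraries, and Anxa4 spreads from 0.0217 to 0.0453.

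S100a10 had the highest rate of the S100 genes, 0.0234, 0.0326 and 0.0308 in labeled replicates 1, 2 and 3. It exceeded S100a6 in 3 of 3 libraries, by 0.00521 ± 0.00260, and it was below Anxa5 in 3 of 3, by 0.00419 ± 0.00103. S100a6 had 0.0212, 0.0262 and 0.0239 on 25385 to 64151 covered T positions, the deepest coverage of the set. S100a4 had 0.0224, 0.0233 and 0.0221, the smallest spread. S100a11, whose protein joins annexin A1 at membranes, had 0.0201, 0.0214 and 0.0222. The means of S100a6 and S100a4 differed by less than the SD of the difference. S100a4 lay above S100a11 in 2 of 3 libraries, by 0.00139 ± 0.00128.

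The share of reads with at least 1 conversion put the 10 genes in the same order, but not in the same places among deeply covered genes. It was 39.9% to 55.8% for the annexins and 26.8% to 37.0% for the S100 genes, against a median of 52.7% for deeply covered genes. By this share Anxa1 (55.8%) was at the 60.6th percentile and Anxa3 (51.6%) at the 45.7th. Both were thus below the upper quartile of 59.5%, unlike by rate. This share also depends on how many T positions a read covers, which was 21.7 in the median of deeply covered genes. The annexins had 18.4 to 22.1 and the S100 genes 13.9 to 19.0 covered T positions per read, with S100a11 the lowest, and 9 of the 10 genes were below the median. Reads of S100a11 with a conversion carried 1.10 ± 0.0672 of them, those of Anxa3 1.76 ± 0.188, and those of deeply covered genes 1.58 in the median. The T>C rate itself is counted per T position.

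Without S4U the members differed widely in their background of T>C conversions. The median of the deeply covered genes was 0.000507, with quartiles of 0.000236 and 0.00109. Above the upper quartile stood 6 genes, Anxa6, S100a4, Anxa4, S100a6, Anxa3 and S100a11, and only Anxa1 was below the lower quartile. S100a4 had 0.00345 (113 conversions on 32718 T positions) and 0.00297 (76 on 25574) in unlabeled replicates 1 and 2, at the 97.0th percentile by the mean. S100a6 had 0.00195 and 0.00196. In these genes both libraries gave almost the same value, with 1.16-fold and 1.01-fold between them. S100a11 (0.00112 and 0.00109) and S100a10 (0.000934 and 0.000890) were likewise close.

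Annexin backgrounds were less even, with the first unlabeled library above the second in all but Anxa1. Anxa6 had 0.00627 (23 on 3668) and 0.00119 (14 on 11795), a 5.28-fold range whose Wilson intervals did not overlap. Anxa3 had 0.00280 (49 on 17496) and 0.000874 (6 on 6865), again without overlap. The median of deeply covered genes was 0.000622 in unlabeled replicate 1 and 0.000382 in unlabeled replicate 2. Anxa2 had 0.000646 and 0.000356, Anxa5 0.000462 and 0.000124, and Anxa4 0.00357 and 0.00136, each on 14 conversions or fewer. In all annexins and in S100a4, S100a10 and S100a11 the counts of unlabeled conversions and of unlabeled reads with a conversion were equal. S100a6 had 132 conversions on 133 such reads and 70 on 72 in unlabeled replicates 1 and 2. Equal counts therefore do not fix the number of conversions in each read. The sequence variants, sequencing errors or RNA changes behind these conversions were not tested.

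Set against its background, the mean labeled rate was 374 times the unlabeled one for Anxa1 and 7.04 times for S100a4, the ends of the range over the means of the groups. The value for Anxa1 rests on 3 and 4 unlabeled conversions and is therefore imprecise. Within single numbers the order at both ends changed, since Anxa5 (292 times) exceeded Anxa1 (277 times) for number 2, and Anxa6 (5.24 times) lay below S100a4 (6.47 times) for number 1. Subtracting the mean unlabeled rate left Anxa1 at 0.0446 and S100a4 at 0.0194, and 8 of the 10 genes stayed below the median of deeply covered genes. S100a4 then fell behind S100a11, which was left at 0.0201, although the difference between these genes was smaller than its SD. S100a6 now exceeded S100a4 in 3 of 3 labeled libraries, by 0.00239 ± 0.00209, a difference above its SD. For each gene the same unlabeled mean was subtracted in every labeled library. These SDs therefore leave out the spread between the unlabeled libraries. Anxa2 moved ahead of Anxa4, by less than the SD of the difference.

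**Figure D4:**
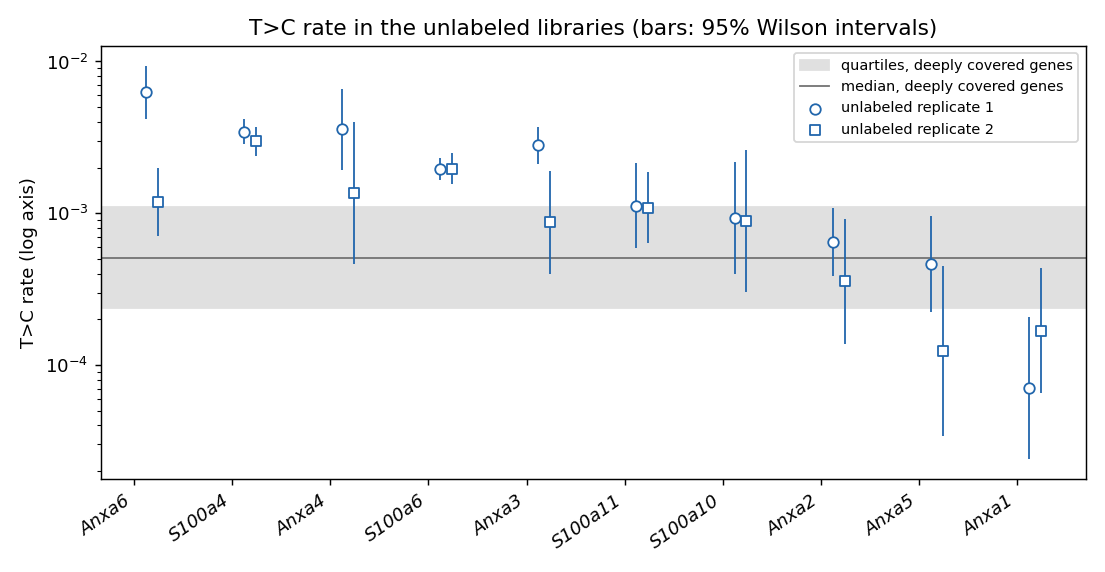
T>C rate (log axis) in unlabeled replicates 1 (circles) and 2 (squares) with 95% Wilson intervals; the grey line and band are the median and quartiles of the deeply covered genes. S100a4 and S100a6 have high values that are alike in both libraries, Anxa6 and Anxa3 differ between the libraries, and Anxa1 is low in both.

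In the comparison of labeled with unlabeled libraries that left the replicate number aside, no difference in reads was detected for any of the 10 genes. With edgeR's quasi-likelihood test (TMM, Benjamini-Hochberg adjustment over 9807 genes), 0 of 10 were higher and 0 of 10 were lower, the smallest adjusted p being 0.962. In this test 0% of all genes were called higher and 0% lower, while without adjustment 279 genes were higher and 306 lower at p below 0.05, none of them among the 10. DESeq2 called 10 genes higher and 4 lower, again none of the set. The log2 fold changes (labeled over unlabeled) ran from -0.22 (Anxa1) to 0.69 (S100a4), with a median of 0.17 beside 0.02 over all genes tested. With the replicate number as a block, edgeR called S100a4 higher (log2 fold change 0.42, adjusted p 0.0442, 1 residual degree of freedom). That fit called 528 genes higher and 617 lower in all, and no label says that a number marks a preparation.

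The intervals leave room for sizeable differences. S100a4 had a log2 fold change of 0.69 (SE 0.40, 95% interval -0.26 to 1.64) and S100a6 of 0.48 (SE 0.28, -0.18 to 1.14). Within number 1 the log2 ratio of labeled to unlabeled S100a4 was 0.12 and within number 2 it was 0.73, and S100a6 gave 0.15 and 0.59. So the ratio was positive in both pairs and larger for number 2. The widest interval was that of Anxa6, from -1.90 to 1.70, and S100a11 followed with -1.11 to 1.84. Anxa1 had a log2 fold change of -0.22 (SE 0.23), with 966, 1002 and 841 TMM-normalised CPM with S4U and 1108 and 1075 without. It was the only member whose groups did not overlap, with all labeled libraries below both unlabeled ones, as in 11.1% of all genes tested. No member had all labeled libraries above both unlabeled ones, as 10.4% of genes did. Within numbers 1 and 2, the ratio was above 1 in both pairs for 5 genes, as in 33.4% of all genes tested. It was below 1 in both for 2 (Anxa1 and Anxa6), as in 31.6%, and differed in direction for 3, as in 35%.

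Reads of the set separated more often by the number in the library's name than by S4U. This comparison was chosen after the levels were seen and is described without a test. Both libraries numbered 1 had fewer reads (TMM-normalised CPM) than the other 3 libraries for 7 of 10 genes, all 4 S100 genes and Anxa4, Anxa5 and Anxa6, as in 25.5% of all genes. They had more for 1 of 10, Anxa3, as in 25.9% of all genes. The mean of the libraries numbered 1 was 127 for Anxa6 against 519 in the other 3, a log2 ratio of -2.03. S100a11 gave 293 and 921 (log2 ratio -1.65) and S100a4 992 and 1961 (-0.98). Anxa3 went the other way, with 451 and 323 (0.48), and the quartiles over all genes were -0.53 and 0.48. The log2 ratios of the other 6 genes ran from -0.64 (Anxa5) to 0.09 (Anxa1). The number of covered T positions per read was also lower in the libraries numbered 1, with medians over deeply covered genes of 19.9 in labeled replicate 1 and 22.4 and 22.7 in replicates 2 and 3, and of 21.0 and 23.2 in unlabeled replicates 1 and 2. For Anxa6 it was 14.8 and 14.6 in the libraries numbered 1 and 19.1 to 20.4 in the others. Number 1 was lower than the other libraries in covered T positions per read for 6 of the 10 genes, near the 68.4% of deeply covered genes for which it was. S100a11 and S100a6 went the other way, as 4.13% of deeply covered genes did, with 14.5 and 14.7 against 13.3 to 14.1 for S100a11 and 19.2 in both against 17.9 and 17.8 in labeled and unlabeled replicates 2 for S100a6, although their reads were fewer. For Anxa2 and S100a10 the ranges overlapped. Its part in the differences in reads was not tested.

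**Figure D5:**
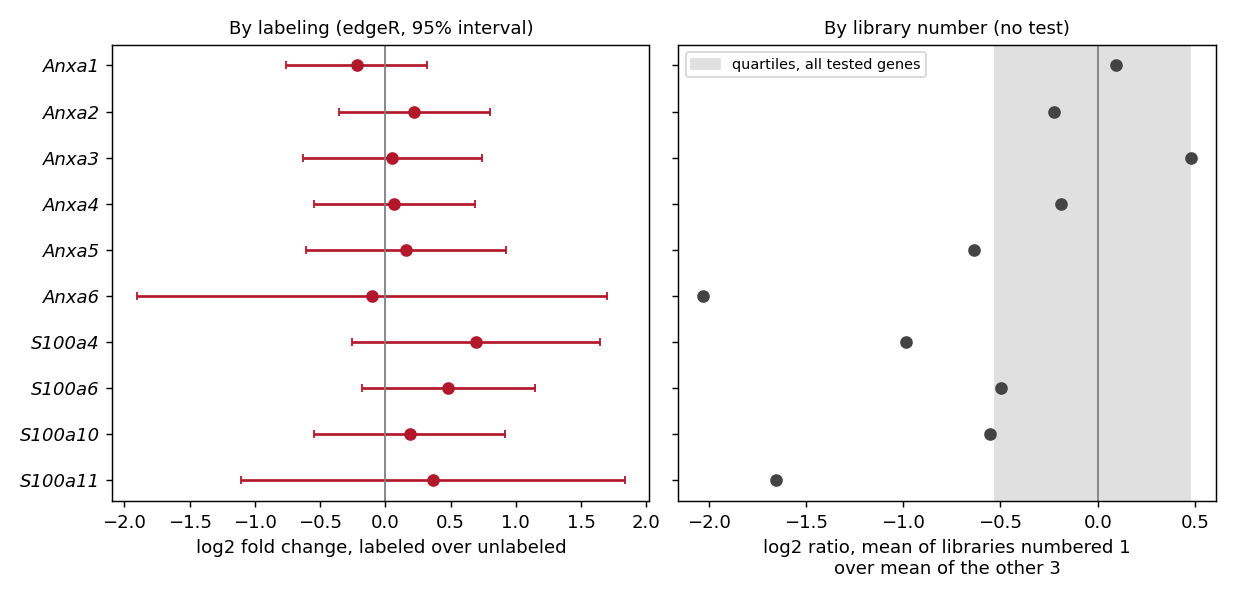
Left, log2 fold change of reads, labeled over unlabeled, with 95% intervals from edgeR; right, log2 ratio of the mean TMM-normalised CPM of the 2 libraries numbered 1 to that of the other 3, with the quartiles of all tested genes in grey. On the left every interval includes 0, and on the right Anxa6 (-2.03) and S100a11 (-1.65) stand farthest from 0.

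Transcripts of proteins that bind each other (Anxa2 with S100a10, Anxa1 with S100a11) and those of S100a6 and S100a4 were compared directly. Anxa2 had 4.34, 2.96 and 3.89 times as many reads as S100a10 with S4U and 4.03 and 3.13 times as many without. The ratio was thus higher in number 1 than in number 2 of both groups. Its T>C rate was higher than that of S100a10 in 3 of 3 labeled libraries, by 0.00472 ± 0.00128. For Anxa1 and S100a11 the reads stood at 3.16, 0.974 and 0.966 to 1 with S4U and at 3.95 and 1.25 to 1 without, and the rate of Anxa1 was higher in 3 of 3 libraries, by 0.0235 ± 0.00180. S100a6 had 1.95, 1.38 and 1.29 times the reads of S100a4 with S4U and 1.90 and 1.52 times without.

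Most other genes of both families had few or no reads, with Anxa7 and S100a16 as exceptions. Of 6 further annexins, 4 had reads in every library and Anxa10 and Anxa13 had none. Anxa7, with 144 to 207 CPM and thus above Anxa4, was the only one deeply covered and had a rate of 0.0397. Of 11 further S100 genes present in the tables, 3 had reads in every library and only S100a16 was deeply covered, at a mean rate of 0.0358, above the mean of each of the 4 S100 members. S100a16 had 96.4, 293 and 231 CPM with S4U (207 ± 100 CPM) and 73.8 and 157 without, a level like that of S100a10 and above that of Anxa4. It also had a high background of 0.00728 and 0.00394 in unlabeled replicates 1 and 2. S100a13 (23.9 to 83.7 CPM) and S100a1 (5.71 to 43.5), the S100 protein of heart muscle, were lowest in the libraries numbered 1. By edgeR 0 of 3 further annexins and 0 of 3 further S100 genes tested passed in either direction. Without adjustment only Anxa8 (3.01 to 10.9 CPM, log2 fold change 1.36) was below 0.05 in edgeR's test, and its adjusted p across all genes was 0.802.

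Most partner and membrane repair genes had higher T>C rates than the S100 members, a difference that was not tested. Of 17 genes listed, 7 were deeply covered, with a median rate of 0.0433, and 2 of these lay below the median of deeply covered genes. Ahnak, a giant scaffold bound by the annexin A2 and S100A10 complex, had a rate of 0.0461, and Pdcd6, a calcium sensor of membrane repair, had 0.0501. Capns1, the small calpain subunit, had 0.0240, in the range of the S100 genes, and its level was lowest in the libraries numbered 1 (158 and 190 CPM against 433 to 646). Ager, a receptor for extracellular S100 proteins, and the annexin A1 receptors Fpr1 and Fpr2 had 0 reads in every library. Of 12 other calcium-binding proteins, 11 were deeply covered, with a median rate of 0.0268 and 9 below the median of deeply covered genes. Calm2, a calmodulin gene, had 0.0475, and the secretory-pathway proteins Rcn3 and Nucb1 had 0.0141 and 0.0158. By edgeR 0 of 13 partner genes and 0 of 12 calcium-binding genes tested passed in either direction, beside 1 and 0 at an unadjusted p below 0.05.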

How the data were processed

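SLAMseq libraries of CF (3 labeled, 2 unlabeled) were grouped by their labels. The authors moved unique molecular identifiers to read names, used SLAM-DUNK 0.4.3 to map them to mm39, discarded duplicates and deposited, per 3′ UTR interval, counts of reads, of covered T positions and of conversions, the conversion rate as a fraction, and CPM. The origin of the intervals was not given in the sources used here. Repeated rows were used once, and no read was counted as multimapping. The interval with the highest mean deposited CPM represented a gene. Levels were recomputed as CPM relative to the reads counted on 1 interval per gene. Rates were tested with a beta-binomial likelihood-ratio test (1 shared overdispersion, 1 degree of freedom, two-sided, at least 1 covered T in every library). Reads were tested with edgeR 4.0.16 (quasi-likelihood, TMM, filterByExpr). Alternatives were DESeq2 1.42.0 for reads and limma 3.58.1 for rates (log odds, pseudocount 0.5), all at a threshold of 0.05. Each of these except limma was also tested on simulated data. In the simulated data the likelihood-ratio test called unchanged intervals somewhat more often than its threshold. Wilson intervals (95%) cover counting error only. The T content of 40380 of 40380 intervals matched GRCm39, and gene annotation came from GENCODE. All 10 genes are named, and the members and gene lists were chosen with earlier results of these data known. Other lists were described by counts and medians.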

Additional observations from a re-analysis of the deposited data

How the results depend on the processing

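The number of genes with a higher T>C rate in labeled libraries was 10 of 10 with unadjusted p-values, with limma on log odds, with intervals summed and without any 1 library. Without 1 unlabeled library the other stands alone in its group, and the spread then comes from the labeled libraries and is assumed to hold for it. A minimum of 1000 covered T positions left Anxa4 untested and 9 genes called. The number of genes below the median rate of deeply covered genes was 8 and stood between 7 and 9 under the alternatives, 7 without labeled replicate 3. The number of genes with more reads in labeled libraries was 0 in 11 other settings and 1 with the replicate number as a block (replicate block), where S100a4 had a log2 fold change of 0.42 and an adjusted p of 0.0442 by edgeR with 1 residual degree of freedom. That fit called 528 genes higher and 617 lower in all. Deviations from the group means correlated by 0.78 for number 1 and 0.64 for number 2, and by 0.48 for labeled replicate 3 with unlabeled replicate 2, which share no number. With 2 unlabeled libraries their deviations mirror each other, so these are not separate values. Only 2 numbers are shared and no label says that a number marks a preparation, so the pairing was not used. No setting gave a gene with fewer reads. Without 1 library in turn, the log2 fold change changed sign for Anxa3 (-0.19 to 0.35), Anxa4 (-0.10 to 0.25), Anxa5 (-0.15 to 0.54), Anxa6 (-0.84 to 1.45) and S100a11 (-0.23 to 1.39), and no gene was called. By deposited CPM, 5 of 10 genes kept their rank when CPM was taken per kilobase, and between 4 and 10 when 1 labeled library was left out (4 without labeled replicate 1). Summing intervals counts Anxa2 reads again, since its second interval overlaps the first. The cause of these changes was not tested. Depth limits Anxa4 most, with 40 to 136 reads a library, and labeled replicate 3 is the shallowest library.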
